A study of Mus musculus with 102 samples.

Results

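The regions described here are those that the study's region list assigns to the class of constitutive low-methylated regions bound by REST. Members were taken from that list by class, whatever their methylation in these samples, although the class was picked for description with earlier results of these data known. The list holds 28 entries of this class, of which 2 describe the same locus in an intron of Garnl3 with ends that differ by 6 bases, so that 27 loci of 87 distinct regions remained. Amplicon bisulfite sequencing, a targeted PCR assay in which unmethylated cytosines read as thymines, covered 98 CpGs in 18 of these loci, out of 405 CpGs in all. SureSelect capture followed by bisulfite sequencing covered 108 CpGs inside 17 loci and 183 CpGs within 2000 bases of the ends of 18 loci, out of 2177608 CpGs. CpGs of the remaining 6 loci, among them those near Slc31a2, Ppp6c, Casc5, Stmn3 and Ncam2, were not analysed here.

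The study followed how methylation of single CpGs changes once the de novo methyltransferases are removed, with and without the TET enzymes that oxidise methylated cytosine. All cells were mouse embryonic stem cells (mESCs) on a C57BL6/J background with loxP-flanked Dnmt3a and Dnmt3b on both chromosomes. Wild-type cells had intact TET genes, and TTKO cells were made from the same line with guides against the catalytic exons of Tet1, Tet2 and Tet3 and are a single clone, so that TET loss and other differences of that clone cannot be told apart. Each line contributed 3 amplicon replicates that were not transduced (day 0), and at days 4, 8, 10, 13, 17 and 29 also 3 replicates each of cells transduced with Cre protein, which deletes the floxed alleles, and of mock-treated cells, which received the Cre buffer and kept Dnmt3a and Dnmt3b. By the study's genotyping the deletion was incomplete, with about 8% of Dnmt3 alleles still functional on average. What these alleles add to the levels after Cre was not tested. SureSelect columns held TTKO cells at day 0 and at the same 6 days after Cre, and wild-type cells at day 0, each joined over 3 replicates by the authors and therefore without an error between replicates. Cells were grown on feeder cells until the day after transduction and without them from then on. The study's methods call the replicates biological, and the labels used here do not say whether they were separate cultures, so p-values measure the spread between these samples.

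REST, also called NRSF, is a zinc-finger repressor that keeps neuronal genes silent in stem cells and non-neuronal tissues by recruiting corepressor complexes. It binds a long bipartite sequence, the RE1 element, and regions around bound sites are known to carry little methylation in embryonic stem cells.

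An RE1 match was searched on both strands as TCAGCACC and GGACAGC with 2 bases between them and at most 3 mismatches over the 15 fixed positions. A match lay inside 21 of the 27 loci (77.8%), inside 1 of the 60 other listed regions (1.67%) and in 604 of 32851 RefSeq promoters of GRCm38.p6 (1.84%), which span 250 bases before to 50 bases after a gene start. No match lay wholly inside the loci near Ppp6c, 4931423N10Rik, Zfp947, 4930588N13Rik, Phactr3 and Celf4. A match with 1 mismatch crossed the end of the Phactr3 locus (match start chr2:178012096, locus end 178012109), another with 1 mismatch lay before the start of the Celf4 locus (match start 25826737, locus start 25826853), and one with 3 mismatches lay beyond the end of the 4930588N13Rik locus (match start chr5:150292853, locus end 150291342). The shares above do not count such outside matches. Matches with 3 mismatches also lay within 2000 bases of regions of other classes, as near Arhgef15 and Hdac2. The loci near Ppp6c, 4931423N10Rik and Zfp947 shared sequence, with 28.6% to 47.5% of the 20-base words of one found in another, and whether reads of such copies were kept apart was not tested. Those near 4931423N10Rik and Zfp947 supplied 22 of the 98 amplicon CpGs and enter the means and counts below. The following windows are in mm9, 5′ to 3′ on the strand of the motif, with the match in capitals and 20 bases to either side. They are shown because amplicons measured a CpG inside the match (Otor, Tssc1, Cacna1a and Cep70), because CpGs a few bases apart differed in level (Ajap1 and Otor), or because a locus with a match is described below (A430005L14Rik, Slc29a4 and Insm1).
Ajap1, chr4:153053443-153053499, minus strand: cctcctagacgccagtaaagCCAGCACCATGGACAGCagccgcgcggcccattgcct
Otor, chr2:143033096-143033152, plus strand: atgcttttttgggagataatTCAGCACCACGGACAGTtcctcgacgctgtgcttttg
Tssc1, chr12:29516056-29516112, plus strand: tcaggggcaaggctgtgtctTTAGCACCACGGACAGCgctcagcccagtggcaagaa
Cacna1a, chr8:86995340-86995396, plus strand: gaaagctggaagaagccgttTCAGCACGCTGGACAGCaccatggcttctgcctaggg
Cep70, chr9:99118888-99118944, plus strand: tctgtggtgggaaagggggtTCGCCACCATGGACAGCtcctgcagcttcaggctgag
A430005L14Rik, chr4:153281713-153281769, plus strand: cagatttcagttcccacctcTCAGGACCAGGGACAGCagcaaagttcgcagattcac
Slc29a4, chr5:143170741-143170797, minus strand: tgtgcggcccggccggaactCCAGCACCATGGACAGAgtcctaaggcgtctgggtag
Insm1, chr2:146052435-146052491, plus strand: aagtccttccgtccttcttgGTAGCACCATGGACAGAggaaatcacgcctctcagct

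The median number of reads per CpG in an amplicon sample ranged from 2556 to 7708 in TTKO cells and from 3421 to 8987 in wild-type cells. Replicates differed by more than their read counts allow, with a chi-square per CpG of 18.001 to 611 over 78 replicate pairs, so no library was counted as deposited again. The joined SureSelect columns had median coverages of 143 to 268 reads at the CpGs in and around the loci.

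Methylation at the REST-bound loci was low at the start and fell after Dnmt3 deletion in both lines. Over the 98 CpGs, non-transduced TTKO samples averaged 19.6%, 18.6% and 19.7%, and wild-type samples 10.1%, 9.53% and 9.50%. After 29 days TTKO samples were at 8.24%, 7.85% and 8.03% with Cre and at 17.4%, 17.6% and 18.7% with mock. The corresponding wild-type samples were at 4.76%, 5.03% and 4.24% with Cre and at 10.8%, 11.6% and 11.8% with mock. Cre and mock samples did not overlap in either line, and neither did TTKO and wild-type samples of the same day and treatment. Over all 384 CpGs with values in these samples the day 0 mean was 40.3% ± 0.423 (SD, n = 3) in TTKO cells and 26.3% ± 0.389 (SD, n = 3) in wild-type cells. The median over single CpGs at day 0 was 10.03% at REST-bound, 21.2% at CTCF-bound and 67.7% at other constitutive regions in TTKO cells, against 6.64%, 10.3% and 14.8% in wild-type cells. Single REST-region CpGs in TTKO cells ranged from 1.71% to 92.5%, with 28 under 5% and 11 over 50%.

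Courses over time were followed at the 70 REST-region CpGs with a level in every sample of both lines. In TTKO cells the Cre mean went from 18.1% ± 0.715 (SD, n = 3) at day 0 to 14.7% ± 0.644 by day 4 and 12.8% ± 0.497 by day 8. It was 11.8% ± 0.178, 11.2% ± 0.285, 9.81% ± 0.793 and 7.06% ± 0.249 on days 10, 13, 17 and 29. The mock mean lay between 16.98% ± 0.800 at day 29 and 20.3% ± 0.254 (SD, n = 3) at day 13, and on each of the 6 days every Cre replicate was below every mock replicate. The wild-type course had another shape. Its mock mean was 18.6% ± 3.15 at day 4 and 18.2% ± 1.25 at day 8, above the 8.80% ± 0.387 (SD, n = 3) of day 0, and was 10.4% ± 0.419 at day 29. Wild-type Cre samples were at 12.3% ± 0.334 at day 4 and 3.73% ± 0.498 (SD, n = 3) at day 29. Over all 254 CpGs with complete values the wild-type mock mean likewise went from 28.7% ± 0.555 at day 0 to 38.9% ± 2.67 (SD, n = 3) at day 4. Cells left the feeder layer in this interval, and the part of that step in the rise was not tested. Cre samples were therefore compared with the mock samples of the same day.

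Per CpG, Cre was compared with mock by a two-sided quasi-binomial model with limma's moderated dispersion and Benjamini-Hochberg adjustment over all CpGs of the amplicon tables, at a threshold of 0.05. In TTKO cells 48 of 98 REST-region CpGs were lower with Cre at day 29 (49.0%) and none was higher, against 66.7% lower over all CpGs tested. The median log2 odds ratio was -1.64 at the REST-bound loci and -1.91 over all CpGs. At the earlier days the lower REST-region CpGs numbered 0 of 93 at day 4 (all CpGs 0%; 15 at an unadjusted p under 0.05, and 3 with limma's dispersion shared by all TTKO samples), 17 at day 8 (all CpGs 17.6%), 27 at day 10 (all CpGs 43.8%), 21 at day 13 (all CpGs 33.7%) and 35 at day 17 (all CpGs 54.9%). A single REST-region CpG was higher with Cre, at day 17 (all CpGs 0.506%), at chr9:99118909 near Cep70 (log2 odds ratio 2.11 ± 0.75 SE, limma adjusted p = 0.0432). Day 8 gave 0 by limma on logit levels and 3 in a fit with the replicate block. Leaving out 1 library gave 0 to 16 lower CpGs at day 8, 12 to 25 at day 10, 9 to 18 at day 13 and 18 to 36 at day 17, and at day 29 the count fell to 31 without Cre replicate 3.

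The count followed the starting level. Of the REST-region CpGs below 5% at day 0 in TTKO cells, 3 of 28 were lower at day 29, against 10 of 65 other CpGs of that level. Between 5% and 20% the counts were 21 of 41 and 32 of 40, with median log2 odds ratios of -1.78 and -2.72. From 20% upward 24 of 29 REST-region CpGs and 166 of 181 other CpGs were lower. The difference between the classes within a band was not tested.

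In wild-type cells 37 of 98 REST-region CpGs were lower with Cre at day 29 (37.8%) and none was higher (all CpGs 51.8%), with a median log2 odds ratio of -1.08 against -1.64 over all CpGs. At earlier days the counts were 0 of 93 at day 4 (all CpGs 0%; 12 at an unadjusted p under 0.05, and 25 with limma's dispersion shared by all wild-type samples), 33 of 98 at day 8 (all CpGs 38.3%), 17 of 80 at day 10 (all CpGs 25.2%), 19 of 98 at day 13 (all CpGs 32.4%) and 30 of 98 at day 17 (all CpGs 51.4%). With the shared dispersion 13 were lower at day 17. Leaving out 1 library gave 18 to 27 at day 8, 10 to 16 at day 10 and 9 to 26 at day 13. Mock samples of day 29 were compared with day 0 to follow the drift of cells that kept Dnmt3a and Dnmt3b. With limma's moderated dispersion no REST-region CpG was called in TTKO cells (all CpGs 0%; 13 at an unadjusted p under 0.05), and 3 were higher in wild-type cells (all CpGs 5.53%), 1 each at Tssc1, Adra2a and 4930588N13Rik. By limma on logit levels none of these 3 calls remained.

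CpGs of an amplicon share reads, so reads were also summed over each locus. At day 29, 16 of 18 REST-bound loci were lower with Cre than with mock in TTKO cells (all regions 91.8%) and 12 of 18 in wild-type cells (all regions 74.2%), and none was higher. Prlhr, the receptor gene of prolactin-releasing peptide, and Igsf21 were the TTKO loci not called. At Prlhr the TTKO Cre samples were at 3.29%, 1.84% and 2.41% and the mock samples at 2.48%, 2.76% and 3.01% (log2 odds ratio -0.12 ± 0.23 SE, limma adjusted p = 0.615). At Igsf21 they were at 1.81%, 0.771% and 1.57% against 3.01%, 2.29% and 3.32% (limma adjusted p = 0.0623). In wild-type cells Otor, Insm1, Terf2ip, Zfp947, Igsf21 and Prlhr were not called, and their means at days 0 and 29 were at most 7.31% in every wild-type group. Tcerg1l, Cacna1a and Cep70 were called although as low in these groups, at most 4.46%, 5.59% and 7.09%.

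The loci differed in level in TTKO cells, and 3 stood above the rest. The highest day 0 level was at the intergenic locus near 4930588N13Rik (chr5:150290956-150291342), with 52.0%, 47.3% and 48.3%, followed by the intergenic loci near A430005L14Rik (chr4:153281716-153282115), with 41.6%, 40.0% and 40.7%, and near Ajap1 (chr4:153053291-153053690), with 39.4%, 34.4% and 42.5%. In wild-type cells the same loci were at 13.9% ± 0.826, 12.2% ± 0.811 and 15.9% ± 0.474 (SD, n = 3). The other 15 loci averaged 2.82% to 18.7% in TTKO cells, with Igsf21, Prlhr and Celf4 under 5% and the remaining 12 at 7.17% or more. After 29 days with Cre the 3 high loci were at 25.7% ± 1.99, 19.4% ± 1.66 and 23.2% ± 1.44 in TTKO cells (SD, n = 3), which was 52.4%, 47.7% and 59.7% of their day 0 level. TTKO mock samples of that day were at 52.2%, 40.4% and 38.2%. In wild-type cells of day 29 the 3 loci were at 2.58%, 3.31% and 6.33% with Cre and at 21.5%, 17.8% and 19.0% with mock.

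Loci of lower starting level kept between 15.51% at Cacna1a and 57.3% at Prlhr of their day 0 level in TTKO cells. TTKO mock samples of day 29 were above day 0 at Tssc1, Slc29a4, Adra2a and Cacna1a. They were below it at the other loci of this group, as at Prlhr (2.75% against 4.38%) and Armc8 (13.7% against 18.7%). The retained shares therefore include any drift of the mock course. Armc8, whose product belongs to a ubiquitin ligase complex, went from 18.7% ± 1.67 at day 0 to 3.06% ± 0.899 at day 29 with Cre (SD, n = 3). The same interval took the locus near the monoamine transporter gene Slc29a4 from 14.3% ± 0.343 to 2.58% ± 0.713, the locus 126812 bases from Adra2a, an adrenergic receptor gene, from 9.38% ± 1.46 to 1.57% ± 0.159 and the intronic locus of Cacna1a, which encodes a pore subunit of neuronal calcium channels, from 7.17% ± 1.41 to 1.11% ± 0.385 (SD, n = 3). Their log2 odds ratios of Cre over mock at day 29 ran from -2.92 to -2.28, with limma adjusted p-values of 2.00e-04 to 0.002496. The loci near Insm1, Cep70, Tcerg1l, Terf2ip, Zfp947 and Celf4 started at 10.1%, 9.97%, 9.20%, 8.74%, 8.42% and 2.82% and were at 2.17%, 2.84%, 2.62%, 2.95%, 2.84% and 1.13% with Cre at day 29. Insm1 encodes a zinc-finger factor of neuroendocrine differentiation and Celf4 a neuronal RNA-binding protein. All of these 10 loci passed the test against mock in TTKO cells.

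Loss of TET came with higher methylation at many of the loci but not at all. At day 0, 11 of 18 were higher in TTKO than in wild-type cells (all regions 78.1%), 2 were lower (all regions 3.12%) and 5 were not called. The largest log2 odds ratios were 2.58 ± 0.11 near 4930588N13Rik, 2.44 ± 0.26 near Otor and 2.26 ± 0.086 near A430005L14Rik (SE). The locus near Otor was at 18.9%, 17.97% and 14.5% in TTKO cells and at 5.24%, 2.85% and 3.84% in wild-type cells. Tssc1 was at 17.4%, 16.9% and 17.7% in TTKO cells and at 20.2%, 20.6% and 16.5% in wild-type cells, which overlap (log2 odds ratio -0.16 ± 0.11 SE, limma adjusted p = 0.233). It was lower with Cre in both lines, with log2 odds ratios of -2.78 ± 0.18 in TTKO and -2.02 ± 0.25 in wild-type cells (SE). Adra2a, Igsf21, Prlhr and Zfp947 had log2 odds ratios between lines of -0.05 ± 0.18, -0.11 ± 0.23, 0.26 ± 0.14 and 0.32 ± 0.19 (SE). Celf4 was lower in TTKO cells, at 2.25%, 2.71% and 3.50% against 5.98%, 7.73% and 4.83% (log2 odds ratio -1.19 ± 0.29 SE, limma adjusted p = 0.00682). This call rests on 2 amplicon CpGs of low level. Over 3 CpGs inside the locus SureSelect gave 3.87% in TTKO and 3.70% in wild-type cells at day 0. At the CpG in both assays, chr18:25826977, it gave 1.1% and 3.2%. The locus near 4931423N10Rik was also called lower from summed reads (-0.22 ± 0.048 SE), but its mean over CpGs was 16.8% in TTKO and 14.96% in wild-type cells, and limma on mean levels gave 0.20, so no direction is given for it.

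Per CpG, 37 of 98 were higher in TTKO cells at day 0 (all CpGs 59.3%) and 4 were lower (all CpGs 1.48%), of which 1 lay at Tssc1, 1 at Celf4 and 2 near 4931423N10Rik. The 3 largest differences lay in the 3 high loci. At chr5:150291266 near 4930588N13Rik TTKO samples were at 94.2%, 94.9% and 88.5% and wild-type samples at 15.3%, 21.1% and 14.1% (limma adjusted p = 7.34e-06). At chr4:153053440 near Ajap1 they were at 70.7%, 67.0% and 79.7% against 7.68%, 10.4% and 11.6% (limma adjusted p = 1.51e-05). At chr4:153281952 near A430005L14Rik they were at 90.6%, 85.3% and 91.9% against 26.7%, 33.9% and 21.8% (limma adjusted p = 4.72e-05). At each of these CpGs most reads were methylated in TTKO cells and a minority in wild-type cells.

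The largest falls with Cre in TTKO cells lay at other CpGs. At chr5:143170690 near Slc29a4 the Cre samples of day 29 were at 10.4%, 11.8% and 17.3% and the mock samples at 66.4%, 55.2% and 60.2% (limma adjusted p = 4.60e-04). At chr4:153282007 near A430005L14Rik they were at 30.2%, 26.0% and 35.0% against 71.3%, 67.3% and 75.8% (limma adjusted p = 1.22e-04), and at chr12:29516210 in Tssc1 at 6.52%, 11.5% and 7.58% against 53.1%, 48.8% and 46.9% (limma adjusted p = 2.49e-05). The 3 smallest differences that passed the test, Cre minus mock, were -2.43 percentage points at chr18:25827148 in Celf4, -2.70 at chr7:145275854 near Tcerg1l and -3.11 at chr12:29516085 in Tssc1. The call near Tcerg1l (limma adjusted p = 0.0484) remained in 5 of 11 alternatives. Tssc1 thus held one of the largest and one of the smallest called falls.

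The CpGs that amplicons measured inside an RE1 match were low in both lines. These 4 CpGs were, in TTKO cells at day 0, at 2.88%, 3.56% and 5.17% in Tssc1, at 5.58%, 2.003% and 1.62% near Otor, at 2.74%, 4.27% and 2.43% in Cacna1a and at 3.63%, 0.622% and 0.860% near Cep70. In wild-type cells they averaged 4.81%, 2.66%, 3.79% and 3.21%. The matches near Slc31a2 and Prlhr also hold a CpG each, for which no amplicon level was used. None of the 4 was called between lines at day 0, and that in Tssc1 was the one called lower with Cre in TTKO cells at day 29. That near Cep70 is the CpG that was called higher with Cre at day 17. Within 15 bases of the motif centre, a limit chosen after the values were seen, 11 CpGs of 7 loci lay between 1.71% and 5.50% in TTKO cells (median 3.15%) and between 2.04% and 9.58% in wild-type cells (median 3.36%). The 57 CpGs farther out in loci with a match ranged from 1.76% to 89.2% in TTKO cells (median 12.6%) and had a median of 6.59% in wild-type cells. In wider bins, the 24 CpGs of 12 loci within 25 bases of the centre had a TTKO day 0 mean of 10.04% and a median of 4.85%, and the 6 CpGs of 6 loci between 25 and 50 bases had 26.3% and 11.3%. Farther out the means were 24.2% between 50 and 100 bases, 15.7% between 100 and 200 bases and 43.9% over 5 CpGs between 200 and 400 bases, so levels did not rise steadily with distance. Low levels also occurred far from the motif, and neither division was tested.

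Near Ajap1 and Otor the low zone ended within a few bases on 1 side of the motif. CpGs 12.5, 14.5 and 16.5 bases from the motif centre near Ajap1, all on the side of the GGACAGC part in the window shown, had TTKO levels at day 0 of 2.62% ± 0.694, 2.49% ± 0.946 and 73.0% ± 6.72 (SD, n = 3). The outermost of them was at 68.6%, 69.6% and 80.7% in the replicates, and its neighbour 2 bases closer at 3.44%, 2.47% and 1.55%. In wild-type cells this pair was at 23.5% ± 2.86 and 2.47% ± 1.29 (SD, n = 3). SureSelect gave 59.7% of 303 reads and 0.300% of 299 reads for the pair in TTKO cells at day 0. Near Otor the CpGs 1.5 and 13.5 bases from the centre were at 3.07% ± 2.18 and 2.09% ± 1.25, and the CpG at 16.5 bases at 46.3% ± 4.63 (SD, n = 3). That CpG was at 6.31% ± 2.35 in wild-type cells (SD, n = 3), and in TTKO cells at day 29 at 23.7%, 22.6% and 25.3% with Cre against 45.9%, 48.2% and 45.5% with mock.

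SureSelect gave a like picture at CpGs that in part differed. Of its 14 CpGs within 15 bases of a motif centre, at 8 loci, 6 were not among the amplicon CpGs, and all 14 lay between 0.300% and 8.10% in TTKO cells at day 0. The 82 CpGs farther out inside loci with a match reached 80.8%, with a median of 6.40%. At the 68 CpGs measured by both assays the TTKO day 0 mean was 22.0% by amplicon and 17.8% by SureSelect, and the wild-type mean 9.47% and 6.62%. SureSelect was lower at 57 of them in TTKO and at 59 in wild-type cells, so levels are compared only within an assay.

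Methylation was higher outside the ends of the loci than inside. In TTKO cells at day 0 the SureSelect mean was 16.4% over 108 CpGs inside and 44.4% over 62 CpGs within 250 bases of an end, and in wild-type cells 6.86% and 34.0%. All 17 loci with CpGs both inside and within 2000 bases were lower inside than around, in TTKO cells at days 0 and 29 and in wild-type cells. The class is one of low-methylated regions, so this order was at least in part set by how the list was made. The median over loci was 9.35% inside and 51.3% around in TTKO cells at day 0, and 4.07% and 43.5% in wild-type cells. Farther out the TTKO day 0 mean was 39.2% over 8 CpGs between 250 and 500 bases away, 28.1% over 18 CpGs between 500 and 1000 bases away and 26.5% over 95 CpGs between 1000 and 2000 bases away. Prlhr, whose locus lies 515 bases from the gene, supplied 60 of the 95 outermost CpGs and 82 flanking CpGs in all, at a mean of 12.2%. Without Prlhr, an alternative chosen after seeing the data, the outermost CpGs averaged 55.4% and those within 250 bases 49.7%.

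After Cre the inside of most loci kept a smaller share of its methylation than the flanks. The mean inside went from 16.4% at day 0 over 14.3%, 12.4%, 11.0%, 10.5% and 8.47% at days 4, 8, 10, 13 and 17 to 7.40% at day 29, a retained share of 45.2%. Outside, CpGs within 250 bases of an end kept 65.8%, those between 250 and 500 bases 52.6%, those between 500 and 1000 bases 31.0% (32.0% without Prlhr) and those between 1000 and 2000 bases 49.4%. The bin between 500 and 1000 bases, with 18 CpGs of 3 loci (9 of 2 without Prlhr), thus kept less than the inside, with 108 CpGs of 17 loci. Over CpGs with at least 100 reads in every column the inside kept 46.8% and the outermost bin 37.9%, so the order of these parts turned. By locus, over all flanking CpGs, the retained share was smaller inside at 13 of 17 loci, with medians of 31.9% and 60.6%. Some of these shares rest on few CpGs, with 1 flanking CpG each near Igsf21 and Slc29a4. Others rest on low levels, such as 2.27% over 3 CpGs inside at Prlhr. By Fisher's exact test on joined reads, which compares these libraries and not the conditions, 64 of 108 CpGs inside were lower at day 29 than at day 0 (all CpGs 59.3%) and none was higher (all CpGs 0.171%). In the flanks 120 of 183 were lower, of which Prlhr supplied 37 of its 82. When a fall of at least 10 percentage points was also asked, 36 of 108 inside (33.3%) and 105 of 183 in the flanks were lower, against 51.9% of all CpGs. Between lines at day 0, 40 of 108 CpGs inside were higher in TTKO cells (all CpGs 44.7%) and 1 was lower (all CpGs 0.907%), and in the flanks 77 of 183 were higher, 27 of them among the 82 of Prlhr.

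By locus, the highest SureSelect level inside at day 0 was near 4930588N13Rik, with 45.8% over 7 CpGs, and the lowest near Prlhr, with 2.27% over 3 CpGs. Lrit2, where the locus overlaps a coding exon, was at 24.8% in TTKO and 10.7% in wild-type cells. The intronic loci of Garnl3 and Phactr3 were at 6.17% and 3.60% in TTKO cells. The share of the day 0 level kept at day 29 was highest near Tcerg1l, at 64.1% of 5.15% over 4 CpGs, but amplicons gave 28.4% for this locus. Among loci with methylated reads at day 29 it was lowest in Cacna1a, at 21.3% of 3.13%. In Phactr3 0 of 232 reads were methylated at day 29, which allows a level of up to 1.29%, against 7 of 212 reads at day 0.

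Rates of demethylation (k_de) and of de novo methylation (k_me) per day were fitted to the TTKO amplicon courses of day 0 and Cre samples with a dynamical model in which Dnmt3 activity declines exponentially. Both rates were determined at 45 of the 98 REST-region CpGs, in 13 loci. The median log2 k_de of these CpGs was -4.23, which corresponds to a half-life of 12.96 days without new methylation, with single CpGs between 2.56 and 72.1 days. The median half-life was 7.35 days over 16 CTCF-region CpGs and 14.3 days over 53 CpGs of other constitutive regions. The median log2 k_me was -5.46 at REST-bound, -4.36 at CTCF-bound and -3.40 at other constitutive regions, and these differences were not tested. With a slower decline of Dnmt3 activity, of 0.25 in place of 0.5 per day, the shortest half-life was 1.45 days, over 35 CpGs. The median log2 k_me at REST-bound loci was then -4.78, and without 1 replicate it was -5.19 to -4.91. The other classes were not refitted in these ways. The slowest loss was fitted at chr5:150291266 near 4930588N13Rik. Leaving out 1 replicate left 24 to 26 CpGs determined, gave shortest half-lives of 3.41 to 5.77 days and longest ones of 68.7 to 95.9 days, and moved the median half-life at REST-bound loci to between 11.8 and 21.4 days, the longest without replicate 2.

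Whether the effect of Cre differed between the lines was tested by an interaction term at day 29, wild type minus TTKO. It was called at 1 of 98 REST-region CpGs (all CpGs 5.99%; 11 at an unadjusted p under 0.05), at chr5:150291266 near 4930588N13Rik. There TTKO cells were at 77.5%, 73.0% and 76.8% with Cre and 89.8%, 92.0% and 93.0% with mock, and wild-type cells at 5.42%, 7.13% and 2.26% with Cre and 33.6%, 40.5% and 42.9% with mock. The relative fall with Cre was thus larger in wild-type than in TTKO cells, with an interaction of -1.94 ± 0.49 (SE, limma adjusted p = 0.0449), and the call remained in 5 of 17 alternatives. The median interaction was 0.33 over REST-region CpGs and 0.22 over all CpGs.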

How the data were processed

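Bisulfite levels of 102 samples were used, 78 by amplicon sequencing and 24 by SureSelect. Per the study's methods, the authors aligned reads to mm9 with Rbowtie in QuasR. They deposited, without normalization, the read coverage of each CpG as counts, amplicon levels as a fraction of methylated reads per replicate (none below a coverage of 100), and SureSelect levels as a percent in columns in which the authors joined 3 replicates (none below 50 reads). The authors' own inferred rate, confidence and TET activity columns, on a log2 scale, were not used. The choice to describe this class of the region list, the gene names and the comparisons was made with earlier results of these data known, while membership itself follows the list.

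Methylated reads were coverage times level. Amplicon CpGs, and reads summed over a locus, were compared with a quasi-binomial logistic regression, two-sided (0.5 added to each count, dispersion moderated with limma 3.58.1 in R 4.3.3 and not below 1) over the samples of each comparison, with Benjamini-Hochberg adjustment over the whole table. Joined SureSelect columns were compared by two-sided Fisher's exact tests in Python 3.11.15. Amplified reads carried no molecular identifiers, so floors of reads cover counting error only. Rates were fitted per replicate on a grid and combined as medians, with a decline of Dnmt3 activity (k_E) of 0.5 per day. For undeleted alleles, 8% of the day 0 level was mixed into the later days. Rates were kept where no replicate had a probability of 0.08 or more at a border of the grid and the combined credible widths were under 2 on the log2 scale. The programs were tested on simulated data. Loci were named by the nearest protein-coding gene of the mm9 annotation. RefSeq promoter sequences were used only for the share with a match.

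Loci were named by rule, except 1 that is not reported here. Named CpGs were the 3 largest and 3 smallest called differences between Cre and mock at day 29 in TTKO cells, the 3 largest called between lines at day 0, and those inside an RE1 match. Other CpGs were chosen after their values were seen. Replicate numbers were not taken to pair the samples, because in no comparison were the correlations of all same-numbered samples over 0.1. They ran from -0.19 to 0.22, and all 3 were above 0 in TTKO cells at day 8 (0.057 to 0.19) and day 13, and in wild-type cells at day 13 and for mock against day 0.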

Additional observations from a re-analysis of the deposited data

Results flagged for a closer look

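The CpG at chr5:150291266 near 4930588N13Rik differed between the lines in its response to Cre at day 29, by a log2 odds ratio of -1.94 ± 0.49 (SE; wild type minus TTKO, limma adjusted p = 0.0449). It kept this call in 5 of 17 alternatives, whose adjusted p-values ran from 0.0274 to 0.181. Wild-type mock cells of day 29 were also higher than wild-type day 0 cells there (33.6%, 40.5% and 42.9% against 15.3%, 21.1% and 14.1%), and the part of that rise in the difference was not tested.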

How the results depend on the processing

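Several counts moved with the estimate of the dispersion and with single libraries, and the cause was not tested. With limma's dispersion shared by all samples of a line, the lower REST-region CpGs numbered 3 in TTKO cells at day 4, 25 in wild-type cells at day 4 and 13 at day 17, and the interaction and the wild-type mock drift gave 0. By limma on logit levels, TTKO day 8 and the wild-type mock drift gave 0. A fit with the replicate block gave 3 at TTKO day 8 and 0 for the interaction, although the numbers were not taken to pair the samples, and moved no other count by more than 1.5 times. Without 1 library the counts in TTKO cells over the 6 days in order were 0 to 0, 0 to 16, 12 to 25, 9 to 18, 18 to 36 and 31 to 47, those in wild-type cells 0 to 3, 18 to 27, 10 to 16, 9 to 26, 22 to 37 and 31 to 36, those between lines 28 to 33, for the interaction 0 to 2, for TTKO mock drift 0 to 0, for wild-type mock drift 0 to 2, and for loci 15 to 16 (TTKO Cre), 12 to 13 (wild-type Cre) and 9 to 11 (between lines). Without 1 library the log2 odds ratio of loci that were not called crossed 0, running from -0.377 to 0.0517 for Prlhr in TTKO Cre, from -0.367 to 0.0874 for Otor and -1.05 to 0.0620 for Insm1 in wild-type Cre, and from -0.207 to 0.150 for Adra2a and -0.230 to 0.0562 for Igsf21 between lines, and the direction turned for 4931423N10Rik between lines with limma on mean levels (0.20).

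Mean levels rest on which CpGs enter. Over the CpGs complete within a line they were 20.1%, 8.39% and 18.7% in TTKO cells at day 0, Cre day 29 and mock day 29 (without 1 replicate 19.9 to 20.5, 8.30 to 8.48 and 18.3 to 19.0), and 8.54%, 3.76% and 10.2% in wild-type cells (without 1 replicate 8.35 to 8.63, 3.53 to 3.93 and 10.1 to 10.3). Over all 98 CpGs they were 19.3%, 8.04%, 17.9%, 9.71%, 4.68% and 11.4%. With equal weight per locus, over the 17 loci in TTKO and 15 in wild-type cells that have CpGs complete within the line, those at TTKO day 0, TTKO Cre, TTKO mock, wild-type day 0 and wild-type mock were 16.7%, 6.67%, 15.7%, 8.01% and 9.78%. SureSelect gave 36 lower CpGs inside (33.3%) when a fall of at least 10 percentage points was also asked, against 51.9% of all CpGs. Its TTKO day 0 means inside and in the bins of rising distance were 13.6%, 48.9%, 38.5%, 36.2% and 42.8% with equal weight per locus, 16.6%, 47.8%, 34.3%, 38.8% and 22.1% with at least 100 reads, 17.5%, 42.7%, 50.9%, 28.6% and 26.4% by distance from the centre, and 16.8%, 49.7%, 39.4%, 38.8% and 55.4% without Prlhr. The median log2 k_de was -4.09 with a k_E of 0.25 and -4.36 with 1, and -4.95 to -4.09 without 1 replicate, and the median log2 k_me was -5.88 with a binomial likelihood, -4.78 with a k_E of 0.25 and -5.19 to -4.91 without 1 replicate, over 24 to 26 CpGs.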
